A study of Mus musculus with 6 samples.

Results

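The genes described here encode proteins that store calcium in the sarcoplasmic reticulum of muscle cells, release it and take it back, together with the exchanger that carries it out across the cell membrane. The set was given by name: Trdn, Asph, Casq2, Ryr2, Hrc, Atp2a2, Pln and Slc8a1. All 8 were found by symbol among the 16832 genes of the deposited table, and all 8 passed the minimum mean of 10 normalized counts. RNA sequencing was done on second heart field tissue dissected from mouse embryos at day 9.5 (E9.5). The 2 control libraries (CTRL, replicates 2 and 3) had the genotype Mef2c-Cre, a transgene active in second heart field progenitors and the cells that descend from them. The 3 gain-of-function libraries (GoF, replicates 1 to 3) had the genotype Hoxb1GOF;Mef2c-Cre, so Cre was shared by both groups. Replicate 1 of the controls was not analysed here. The labels state neither the structure of the Hoxb1 allele, nor whether embryos were pooled, nor whether replicates were separate embryos, so p-values measure the spread between these libraries, which may be technical.

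In a heart muscle cell, calcium entering through the cell membrane opens the ryanodine receptor, the release channel of the sarcoplasmic reticulum. Triadin and junctin tie that channel to calsequestrin, a calcium-binding protein inside the store, while the SERCA2 pump refills the store under the brake of phospholamban. The second heart field lies beside the beating heart tube, so dissected tissue can hold progenitors and young myocardium.

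Of the 8 genes, 4 were called lower in GoF: Trdn, Hrc, Pln and Ryr2, at 0.405, 0.655, 0.521 and 0.823 of the control level (limma, adjusted p under 0.05 over all genes). The background to this count was 10.9% of the 16794 genes tested called lower and 12.2% called higher. No member was called higher by limma, with 0 at an unadjusted p under 0.05 in that direction and 0 by edgeR and by DESeq2, where 12.4% and 13.1% of genes were called higher. By edgeR 3 members were lower (background 10.0%) and by DESeq2 4 (background 13.3%). Asph, Casq2, Atp2a2 and Slc8a1 did not pass. Over the 8 genes the median log2 fold change was -0.30, and over all genes tested it was -0.01.

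The count of members called lower depended on single libraries. It was 2 without GoF replicate 1, when 3.3% of all genes were lower, and 2 without GoF replicate 2 (background 4.76%). Leaving out a control leaves 1 library in that group, so the spread between controls is not measured. For those fits only log2 fold changes are given below. After removal of a trend on GC content from each library, 3 were lower (background 3.33%). Leaving out GoF replicate 1 as well left 1, Hrc (background 0.406%). With the replicate number as a block it was 2 (background 3.61%), and 1 with the GC trend also removed (background 0.553%). Control replicate 1 was not analysed, so the block takes up GoF replicate 1. Its log2 fold changes equal those of the fit without that library, and the block is not a separate check. Quantile normalization gave 1 member called higher, Atp2a2 (background 11.2%).

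Some facts of the whole series bear on these values. Libraries held 34260116 to 44384354 reads, and mitochondrial genes took 44.4% to 50.7% of them in the controls and 35.7% to 37.4% in GoF. Hoxb1 itself was measured at 752 and 610.2 in CTRL and 1021, 1003 and 1041 in GoF (log2 fold change 0.59, limma adjusted p = 0.0147; 0.26 and 0.251 after GC trend removal). The fold change of all genes followed GC content: with genes split into 10 equal bins by the GC content of the longest transcript, the median log2 fold change was -0.43 in the lowest bin and 0.65 in the highest. GoF replicate 1 sat near the average of the other two: over 9082 genes its SD about that average was 0.279 of the SD of their difference, where independent libraries of equal spread give 0.866. If it is not a separate sample, the SDs of GoF and the p-values are too small.

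Promoter sequence was at hand for 5 of the 8 genes (RefSeq, build GRCm38.p6, 250 bases before to 50 after the RefSeq start). Those of Hrc, Pln and Ryr2 are shown because the 3 genes were all called lower while their promoters differ in base composition. Capitals mark matches to 6 motifs searched on both strands: a Hox-Pbx type site written TGATNNAT, the GATA motif in its forms AGATAA and also TGATAA, an E-box with the letters CAGCTG, the TATA box spelled TATAAA, and the MEF2 and CArG motifs, which allow several letters.
Hrc promoter (chr7:45335019-45335318, plus strand): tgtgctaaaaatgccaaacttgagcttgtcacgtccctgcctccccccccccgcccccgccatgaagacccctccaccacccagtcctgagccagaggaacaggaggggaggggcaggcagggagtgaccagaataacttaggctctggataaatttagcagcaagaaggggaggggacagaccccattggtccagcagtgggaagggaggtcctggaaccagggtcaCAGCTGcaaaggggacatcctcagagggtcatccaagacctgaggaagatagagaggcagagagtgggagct
Pln promoter (chr10:53337436-53337735, plus strand): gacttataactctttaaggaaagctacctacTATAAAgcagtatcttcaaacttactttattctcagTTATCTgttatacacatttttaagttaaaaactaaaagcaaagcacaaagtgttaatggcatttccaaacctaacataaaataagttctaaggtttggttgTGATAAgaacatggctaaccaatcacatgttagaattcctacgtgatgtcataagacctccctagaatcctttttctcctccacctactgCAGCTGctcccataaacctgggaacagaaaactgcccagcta
Ryr2 promoter (chr13:12106896-12107195, minus strand): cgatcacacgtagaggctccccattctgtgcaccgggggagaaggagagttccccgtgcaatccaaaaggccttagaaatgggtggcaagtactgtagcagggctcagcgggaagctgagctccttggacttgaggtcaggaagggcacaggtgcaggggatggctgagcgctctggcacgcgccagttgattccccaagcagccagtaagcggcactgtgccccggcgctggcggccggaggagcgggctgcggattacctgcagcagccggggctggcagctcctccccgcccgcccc
The Hrc window held 1 match, a CAGCTG beginning at -22, counted from the start base as 0. In the Pln window a CAGCTG began at 8, GATA matches at -183 and -82, and TATAAA at -219, with no overlap between different motifs. The Ryr2 window held no match and had 65.3% GC with 18 CG dinucleotides, against 36.0% and 1 for Pln and 58.7% and 3 for Hrc. In the remaining windows Casq2 held a TGATNNAT match at -73 and Slc8a1 GATA matches at -177 and -68. Among the 32851 promoter windows of the table, CAGCTG was found in 16.3%, the GATA motif in 18.6%, TATAAA in 13.6%, TGATNNAT in 8.85%, CArG in 1.63% and MEF2 in 0.557%. A match is a description of letters, not of binding.

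Trdn encodes triadin, the membrane protein that anchors calsequestrin beside the ryanodine receptor (chromosome 10, 33080554 to 33476709, plus strand, build mm10 here and below). Control replicates 2 and 3 had 1046 and 693 normalized counts and GoF replicates 1, 2 and 3 had 315, 379 and 341 (GoF mean 345 ± 32.4, SD, n = 3). All GoF libraries were below both controls, and control replicate 2 was the highest library. The log2 fold change was -1.30 (SE 0.19, limma adjusted p = 0.00585), a ratio of 0.405 with a 95% interval of 0.299 to 0.548. The controls differed by 0.59 on the log2 scale. Against control replicate 2 alone the log2 fold change was -1.60, and against control replicate 3 alone it was -1.01. The transcript has 36.8% GC, in the lowest of the 10 bins, where 33.5% of genes were called lower. After GC trend removal it was at -0.79 (SE 0.18, adjusted p = 0.0430), and without GoF replicate 1 as well at -0.73, where the call was lost (adjusted p = 0.146).

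Asph yields several products, among them junctin, the partner of triadin in the release complex, and the enzyme aspartate beta-hydroxylase, which is found in many tissues. The counts are per gene and cannot separate these, and the annotation lists 20 transcripts (chromosome 4, 9448069 to 9669344, minus strand). It was measured at 5476 and 5456 in CTRL and 5166, 4586 and 5808 in GoF. Both controls lay within the range of the GoF libraries. Its log2 fold change of -0.08 (SE 0.11) did not pass (limma adjusted p = 0.591), and the interval of the ratio was 0.798 to 1.12. On the opposite strand Clvs1 shares 2302 exonic bases with Asph. Since the strand setting of the counting is not stated in the sources used here, reads of such pairs cannot be told apart.

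Casq2 encodes cardiac calsequestrin, the calcium buffer of the store (chromosome 3, 102086415 to 102146514, plus strand). It was near the bottom of the data, with 22 and 6 recovered reads in control replicates 2 and 3 and 35, 39 and 41 in the GoF replicates. As normalized counts these were 25.8 and 7.49 against 35.9, 31.5 and 33.2. The GoF libraries all stood above both controls, yet the controls differed more from each other than control replicate 2 did from GoF. A log2 fold change of 1.19 (SE 0.56) did not pass (limma adjusted p = 0.155). It was 0.36 against control replicate 2 alone and 2.02 against control replicate 3 alone. Control replicate 3 was also low for liver bud markers: Afp was at 419.8 and 8.74 in CTRL and 144, 125 and 163 in GoF. Ttr was at 111 in control replicate 2, listed at 0 in control replicate 3, and at 112, 97.9 and 119.7 in GoF. The part of this difference in the Casq2 result was not tested.

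Ryr2 encodes the cardiac ryanodine receptor, through which the store empties (chromosome 13, 11553102 to 12106945, minus strand). It was measured at 5952 and 6355 in CTRL and 4969, 4829 and 5408 in GoF (GoF mean 5069 ± 302, SD, n = 3). The groups did not overlap, but the gap between them was smaller than the range within GoF. The ratio was 0.823 with an interval of 0.720 to 0.941 (log2 fold change -0.28, SE 0.08, limma adjusted p = 0.0459). Ryr2 no longer passed without GoF replicate 1 (-0.27, adjusted p = 0.211), 2 (-0.25, 0.134) or 3 (-0.33, 0.0538) and by edgeR (-0.25, 0.0670). It was at -0.33 without control replicate 2 and at -0.23 without control replicate 3. After GC trend removal it was at -0.34 (adjusted p = 0.0474). When a trend on transcript length was removed, the log2 fold change turned to 0.05, the longest Ryr2 transcript having 16814 bases.

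Hrc encodes the histidine-rich calcium-binding protein, which lies in the lumen of the store and binds triadin (chromosome 7, 45335290 to 45338974, plus strand). The controls had 1493 and 1489 normalized counts and thus nearly coincided, and the GoF libraries had 1015, 915 and 1001 (GoF mean 977 ± 54.3, SD, n = 3). The gap between the groups was wider than the range within either. The ratio was 0.655 with an interval of 0.559 to 0.768 (log2 fold change -0.61, SE 0.10, limma adjusted p = 0.00781). Its transcript has 53.3% GC, in a bin where the median log2 fold change was 0.30, 1.54% of genes were called lower and 20.1% higher. GC trend removal therefore moved Hrc further from 0, to -0.91 (SE 0.10, adjusted p = 0.00827), and to -0.94 without GoF replicate 1 as well (adjusted p = 0.0191). Hrc was called lower in every alternative that kept both controls. Its log2 fold changes ran from -0.94 to -0.56 over all 20 alternatives, which are not all separate checks.

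**Figure D1:**
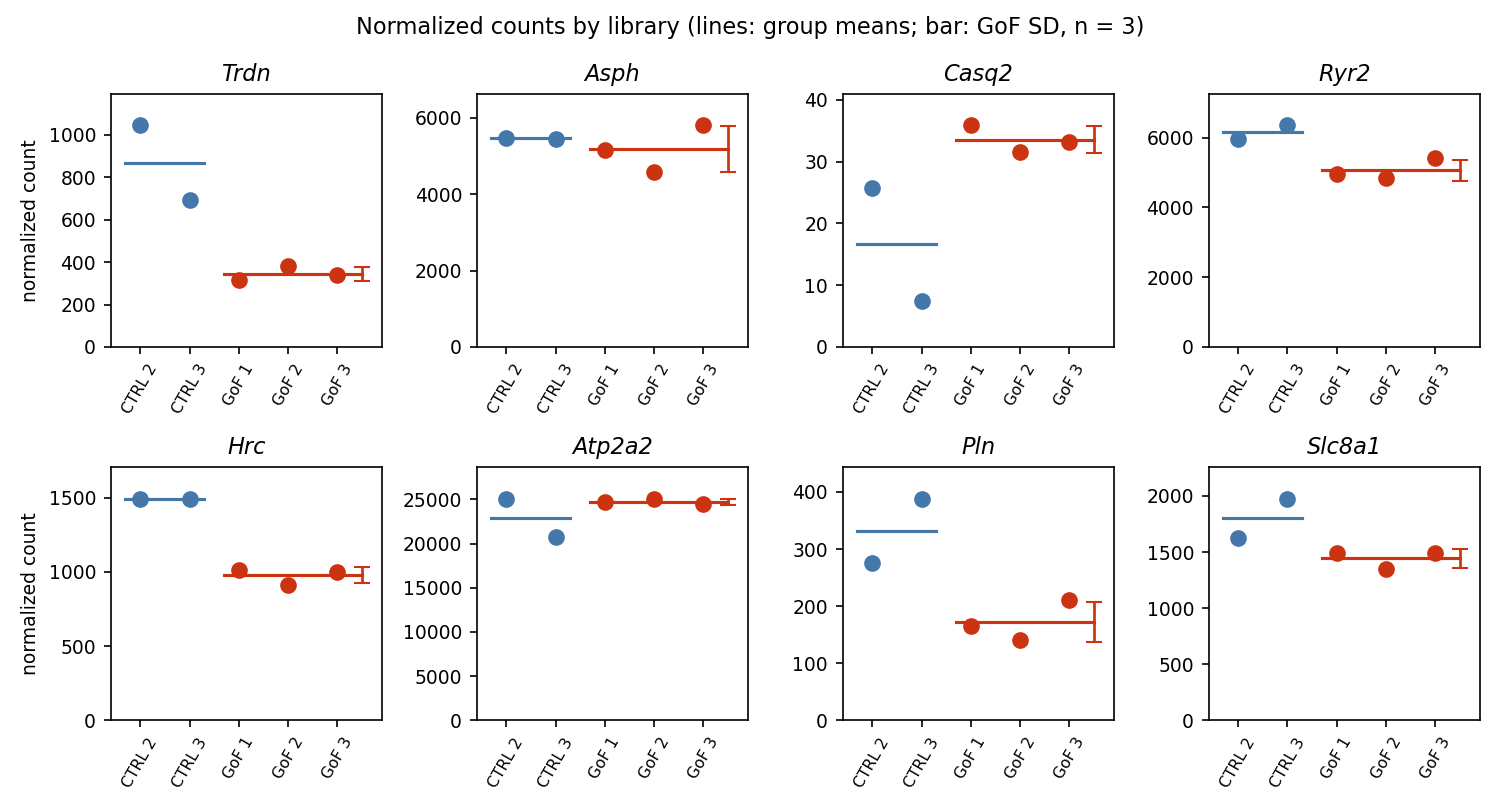
Normalized counts of the 8 genes (vertical axes from 0, a scale per panel) in each library (blue CTRL, red GoF), with lines at the group means and a bar for the SD of the 3 GoF libraries. Trdn, Hrc, Pln, Ryr2 and Slc8a1 are lower in each GoF library than in both controls, Casq2 is higher, and Asph and Atp2a2 overlap.

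Atp2a2 encodes SERCA2, the pump that returns calcium to the store (chromosome 5, 122453513 to 122502225, minus strand). It was measured at 25007 and 20716 in CTRL and 24670.1, 25075 and 24435 in GoF. Control replicate 2 lay among the GoF libraries and control replicate 3 below them. Its log2 fold change of 0.12 (SE 0.09) did not pass (limma adjusted p = 0.346), and the interval of the ratio was 0.944 to 1.25. The sign turned without control replicate 3 (-0.02), and without control replicate 2 the log2 fold change was 0.26. Atp2a2 passed as higher after quantile normalization (0.43, adjusted p = 0.00420).

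Pln encodes phospholamban, the small membrane protein that slows SERCA2 until it is phosphorylated (chromosome 10, 53337667 to 53345987, plus strand). It was measured at 276 and 388 in CTRL and 166, 139.9 and 210.4 in GoF (GoF mean 172 ± 35.6, SD, n = 3). Every GoF library was below both controls, although both groups spread widely. The ratio was 0.521 with an interval of 0.358 to 0.757 (log2 fold change -0.94, SE 0.23, limma adjusted p = 0.0267). Like Trdn, its transcript (38.6% GC) is in the lowest GC bin, and GC trend removal ended the call (-0.52, SE 0.23, adjusted p = 0.202). It also missed the threshold without GoF replicate 2 (-0.80, adjusted p = 0.0736). It was at -1.19 without control replicate 2 and at -0.70 without control replicate 3. Without GoF replicate 1 and with the replicate block the log2 fold change was about as large as with all libraries (-0.93 in both), and the adjusted p was 0.0661 and 0.0514. Of genes annotated on the opposite strand, Gm47644 shares 1644 exonic bases with Pln, whose longest transcript has 2334 bases, and was not analysed here. Cep85l shares 141 exonic bases with Pln. It had 423 and 590.2 and, in GoF, 408, 396 and 422 normalized counts and did not pass (log2 fold change -0.29, limma adjusted p = 0.226).

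Slc8a1 encodes the sodium-calcium exchanger NCX1, which carries calcium out of the cell (chromosome 17, 81373105 to 81738377, minus strand). It was measured at 1625 and 1975 in CTRL and 1488, 1347 and 1493 in GoF. The groups did not overlap, but the gap was smaller than the difference between the controls. Its log2 fold change of -0.31 (SE 0.11) did not pass (limma adjusted p = 0.0795). It was 0.03 after GC trend removal, at 40.2% GC, and 0.04 after removal of the length trend. Without control replicate 2 it was at -0.45, and without control replicate 3 at -0.17. On the opposite strand AC122399.1, not analysed here, shares 296 exonic bases with Slc8a1.

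Counting all members, 5 of 8 were lower in every GoF library than in both controls, 1 was higher and 2 overlapped, while 27.6% of all genes tested were lower in this sense and 27.3% higher. The authors' deposited table had the same 4 members at an adjusted p under 0.05, with log2 fold changes of -1.33 for Trdn, -0.61 for Hrc, -0.95 for Pln and -0.28 for Ryr2. Their adjusted p-values in the authors' deposited table were 1.4e-08, 1.6e-05, 0.00362 and 0.0249. DESeq2 on the recovered reads gave the same log2 fold changes when rounded, so the deposited values are not a separate check. In that DESeq2 fit 13.3% of all genes were called lower.

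**Figure D2:**
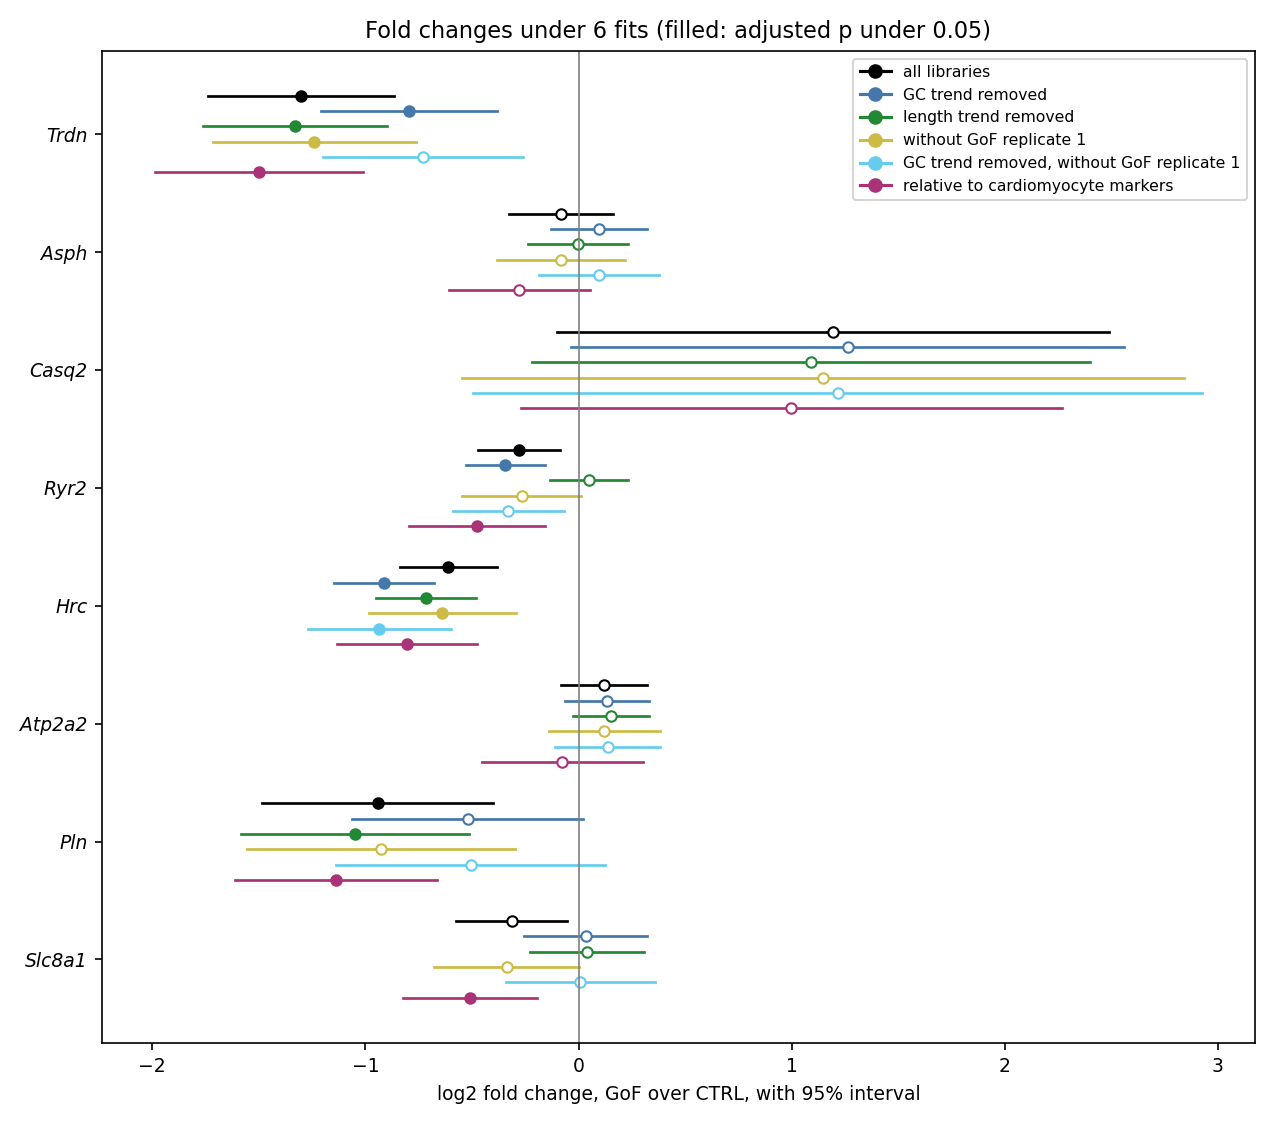
Log2 fold change of GoF over CTRL with its 95% interval (horizontal axis) for each gene under 6 limma fits, filled where the adjusted p is under 0.05. Hrc is filled in all 6 fits and Trdn in 5, and the intervals of Asph, Casq2 and Atp2a2 cover 0 in all 6. The fit relative to cardiomyocyte markers moves the median of all genes to -0.20.

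**Figure D3:**
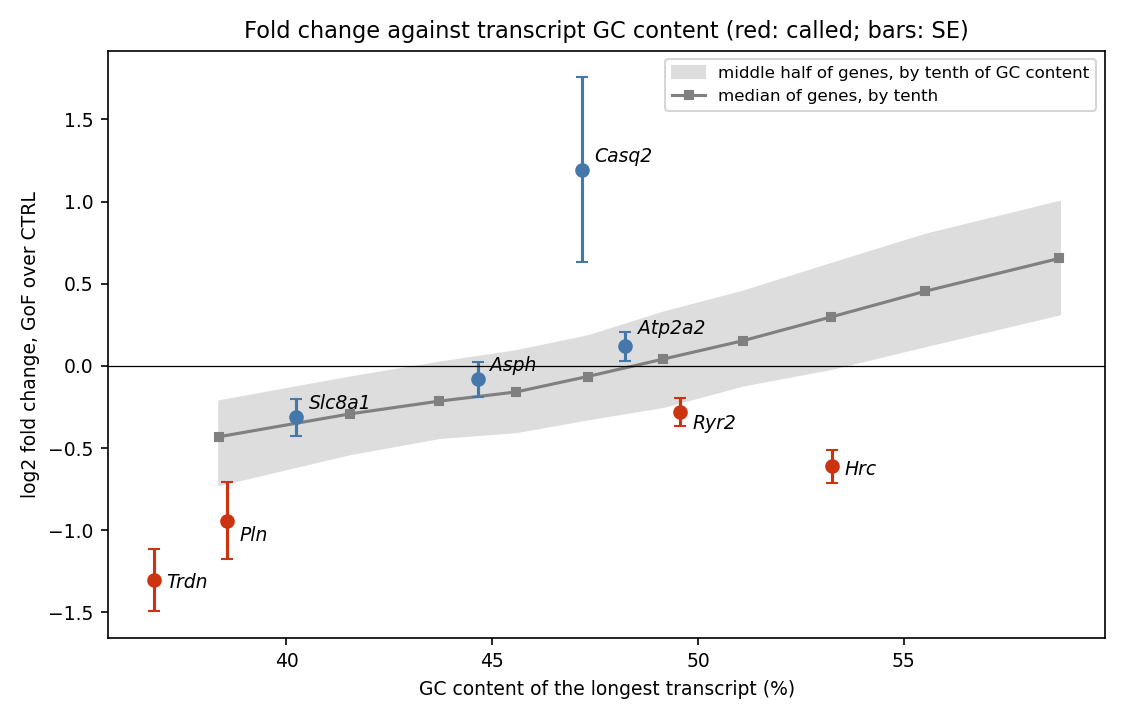
Log2 fold change of the 8 genes (red called, blue not called, bars SE) against the GC content of the longest transcript in percent, over the median and middle 50% of all genes in 10 GC bins. Trdn, Pln, Ryr2 and Hrc lie below the middle 50% of genes of their bin, Slc8a1, Asph and Atp2a2 within it and Casq2 above it.

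Ratios between members within a library cancel its scaling, though not an effect of GC content. Trdn per 100 counts of Ryr2 was 17.6 and 10.9 in CTRL and 6.34, 7.86 and 6.31 in GoF. Hrc per 100 counts of Ryr2 was 25.1 and 23.4 in CTRL and 20.4, 18.9 and 18.5 in GoF. Counts of both genes were thus lower beside those of Ryr2 in every GoF library. Asph per 100 counts of Ryr2 went the other way, from 92.0 and 85.8 to 104, 94.97 and 107. Pln per 100 counts of Atp2a2 was 1.10 and 1.87 in CTRL and 0.673, 0.558 and 0.861 in GoF, so this ratio of counts was lower in every GoF library. The transcripts of Pln and Atp2a2 have 38.6% and 48.2% GC, and the part of GC content in the ratio was not tested. Ryr2 per 100 counts of Atp2a2 was 23.8 and 30.7 against 20.1, 19.3 and 22.1, and Slc8a1 per 100 counts of Atp2a2 6.50 and 9.54 against 6.03, 5.37 and 6.11. These ratios were formed after the values were seen and carry no test.

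**Figure D4:**
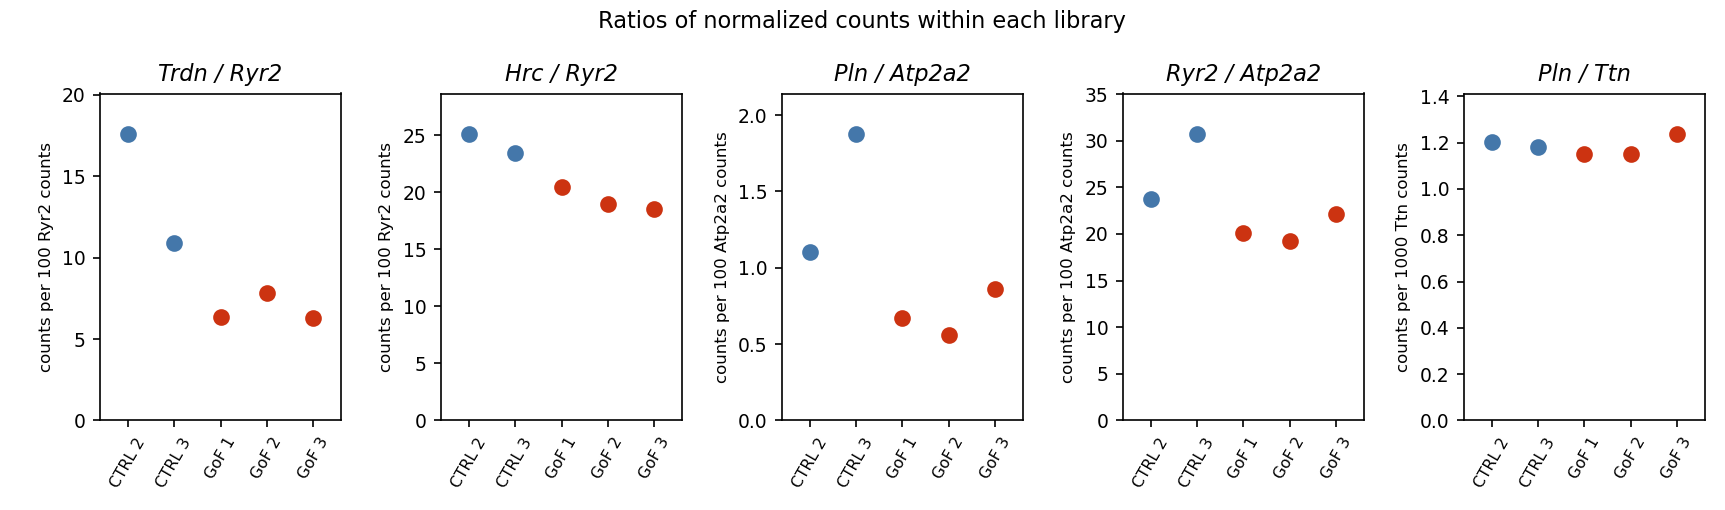
Ratios of normalized counts within each library (vertical axes from 0, counts of the first gene per 100 or per 1000 counts of the second; blue CTRL, red GoF). The ratios of Trdn and Hrc to Ryr2 and of Pln and Ryr2 to Atp2a2 do not overlap between the groups, while Pln per 1000 counts of Ttn spans a narrow range over all 5 libraries. Ttn was picked as the gene nearest to Pln on these same values, so that narrow range follows from the choice.

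Levels can be compared between genes per kilobase of the longest annotated transcript, which is approximate where shorter transcripts are in use. Atp2a2 was highest at 4407 and 3651 normalized counts per kilobase in CTRL and 4306 to 4419 in GoF. It was followed in CTRL by Asph (818 and 815), Hrc (619 and 617) and Ryr2 (354 and 378). Trdn (232 and 153) and Pln (118 and 166) overlapped there, above Slc8a1 (88.0 and 107) and Casq2 (10.1 and 2.93). In GoF, Slc8a1 (72.9 to 80.9 per kilobase), Trdn (69.7 to 84.0) and Pln (59.95 to 90.1) overlapped one another.

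The myocardium in the tissue was checked with 20 cardiomyocyte markers, of which 19 were tested. Of these 5 were called higher (26.3%) and 3 lower (15.8%), against 12.2% and 10.9% of all genes tested, with a median log2 fold change of 0.26. Tnni1, a troponin I that the embryonic heart uses, rose from 124 and 136 normalized counts to 294, 307 and 311 (log2 fold change 1.22, limma adjusted p = 0.00486). Myl7, the atrial light chain, rose from 1335 and 1279 to 2300.0, 2071 and 2235 (0.75, adjusted p = 0.00400), and Mybpc3, a myosin-binding protein, from 614 and 705 to 1001, 964 and 988 (0.58, adjusted p = 0.0117). Ttn, titin, fell from 229067 and 328088 to 144457, 121492 and 170199 (-0.93, adjusted p = 0.0124). Myl2 and Myom1, whose values are given under other observations, were the remaining markers called lower. After GC trend removal Tnni1 was the marker called higher and 4 were lower, Myl2 and Myom1 among these 4. In that fit 506 of 16266 genes were called higher and 3.33% lower. Ttn then missed the threshold at nearly the same log2 fold change (-0.87, adjusted p = 0.0510), while Myl7 was at 0.34 (adjusted p = 0.0818) and Mybpc3 at 0.07 (adjusted p = 0.701). The summed level of the markers, most of it Ttn, was 295909 and 407554 in CTRL and 200031 to 249702 in GoF, while their mean log2 level was 10.02 and 10.22 against 10.22 to 10.38.

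In bulk tissue, fewer cells of a type and less RNA per cell cannot be told apart, which holds for all 8 genes. With each library set relative to the mean log2 level of the cardiomyocyte markers, the median of all genes moved to -0.20. Beside that shift Trdn was at -1.50 (limma adjusted p = 0.00329), Hrc at -0.81 (0.00642), Pln at -1.14 (0.00671), Ryr2 at -0.48 (0.0380) and Slc8a1 at -0.51 (0.0288). On this scale 5 members were called lower, as were 15.9% of all genes.

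Some markers of other tissues that a dissection can hold were called as well, where 12.2% of all genes tested were called higher and 10.9% lower. The called ones, each with its log2 fold change and limma adjusted p, were Krt18 (1.06, 0.00960), Cdh1 (0.41, 0.0200) and Krt8 (0.89, 0.0223) of 6 for endoderm and epithelium, Hbb-y (0.75, 0.0225) and Hba-x (0.99, 0.0244) of 6 for blood, Tubb3 (2.23, 0.0362) and Tfap2a (0.50, 0.0475) of 7 for neural crest and neural tissue, and Cdh5 (0.61, 0.00781) and Emcn (-0.40, 0.0344) of 6 for endothelium. None of these 9 calls held after GC trend removal. Hbb-y and Tfap2a were then about as far from 0 as before (0.73 and 0.50, adjusted p = 0.0540 and 0.0792). Krt18 was at 0.56, Cdh1 at 0.27, Krt8 at 0.35, Hba-x at 0.53, Tubb3 at 1.65, Cdh5 at 0.38 and Emcn at -0.07 (adjusted p = 0.0893, 0.0906, 0.269, 0.283, 0.126, 0.0737 and 0.718). Summed levels in CTRL and in GoF were 2655 and 2386 against 3129 to 3336 for endoderm and epithelium, 10863 and 6571 against 13635 to 17531 for blood, 3298 and 3680.0 against 3727 to 4001 for neural tissue and 6095 and 5383 against 6543 to 6641 for endothelium. None of the 5 smooth muscle markers (sums 3853 and 5457 against 5479 to 5548; Acta2 and Cnn1 the most expressed) and none of the 3 liver bud markers tested (sums 583 and 8.74 against 259.6 to 362) was called by limma. Skeletal muscle, which also uses triadin, had 3 of its 10 markers in the table, Myf5, Actn3 and Chrna1, with sums of 111 and 76.1 against 114 to 139, and none called. The part of these tissues in the results was not tested.

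Genes that work beside the 8 members are described next, from lists chosen for their roles. The background to the limma counts of these lists was 12.2% of all genes tested called higher and 10.9% lower. Of 18 other genes of calcium release and the junction, 16 were tested and 3 were higher, with a median log2 fold change of -0.06. None was called lower by limma (1 at an unadjusted p under 0.05), where edgeR called 0 lower and DESeq2 0. Jph2, junctophilin 2, which holds the store close to the cell membrane, rose from 119.6 and 125 normalized counts to 237, 232 and 215 (log2 fold change 0.89, SE 0.17, limma adjusted p = 0.0126). Calm3, a calmodulin gene, rose from 726 and 852 to 1365, 1539 and 1144 (0.77, SE 0.15, adjusted p = 0.0116), and Tmem38a, a potassium channel of the store, from 75.04 and 83.6 to 135, 125 and 151 (0.78, SE 0.22, adjusted p = 0.0361). These calls ended with GC trend removal (log2 fold changes of 0.16, 0.17 and 0.45, adjusted p = 0.581, 0.390 and 0.219). In that fit 1 other gene of the list was called higher and 0 lower, where 506 of 16266 genes were called higher and 3.33% lower.

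Of 8 further pump genes and small regulators 4 were tested and 1, Hax1, was higher. Hax1, whose product binds phospholamban, rose from 301 and 252 to 408, 468 and 396 (log2 fold change 0.62, SE 0.16, limma adjusted p = 0.0278). The fold change was about as large after GC trend removal (0.56) and without GoF replicate 1 (0.64), where the adjusted p was 0.0672 and 0.106. Hax1 also missed the threshold without GoF replicate 2 (0.54, adjusted p = 0.0902). It was at 0.74 without control replicate 2 and at 0.49 without control replicate 3. None of the 4 was called lower by limma, edgeR or DESeq2, with 0 at an unadjusted p under 0.05 by limma.

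Of 15 genes of calcium entry and extrusion at the cell membrane 2 were higher and 2 lower, with a median log2 fold change of -0.04. That is 13.3% in each direction, near the shares of 12.2% and 10.9% over all genes tested. Slc8a3, the exchanger NCX3 and a relative of Slc8a1, rose from 73.9 and 73.6 to 160.0, 188 and 165. Its groups were well apart (ratio 2.30, SE 0.20 on the log2 scale, limma adjusted p = 0.00877), and it was also called after GC trend removal (0.92, adjusted p = 0.0388) but not without GoF replicate 1 as well (0.97, 0.187). Orai1, the pore of store-operated calcium entry, rose from 53.9 and 38.7 to 84.1, 92.2 and 80.9 (0.89, limma adjusted p = 0.0486). Orai1 did not pass by edgeR (0.92, adjusted p = 0.0540) or by DESeq2 (0.89, adjusted p = 0.0740). Cacna2d1, a subunit of voltage-gated calcium channels, fell from 1092 and 756 to 562, 443 and 622 (-0.76, adjusted p = 0.0308), and Atp2b1, a calcium pump of the cell membrane, from 12012 and 9594 to 8319, 8418 and 8402 (-0.36, adjusted p = 0.0376). The calls of Orai1, Cacna2d1 and Atp2b1 ended with GC trend removal (log2 fold changes of 0.28, -0.43 and -0.10, adjusted p = 0.559, 0.161 and 0.459).

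Of 13 genes of the endoplasmic reticulum calcium store 12 were tested, 1 was higher and 2 were lower, with a median log2 fold change of 0.07. Calr, calreticulin, a calcium buffer of the endoplasmic reticulum, rose from 2617 and 2541 to 3552, 3672 and 3603 (log2 fold change 0.48, SE 0.08, limma adjusted p = 0.00744). It was also called after GC trend removal (0.40, adjusted p = 0.0276), but not without GoF replicate 1 as well, at a similar log2 fold change (0.41, adjusted p = 0.158). Its GoF libraries lay close together and above both controls. With GC trend removal alone 2 genes of this list were called higher, Calr among them, where 506 of 16266 genes were called higher. Atp2c1, a calcium pump of the Golgi, fell from 5304 and 5662 to 4059, 4417 and 3964 (-0.40, adjusted p = 0.0157), and Rcn2, a reticulocalbin, from 3034 and 3145 to 2433, 2654 and 2311 (-0.33, adjusted p = 0.0371), both calls ending with GC trend removal (-0.09 and -0.11, adjusted p = 0.564 and 0.508).

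**Figure D5:**
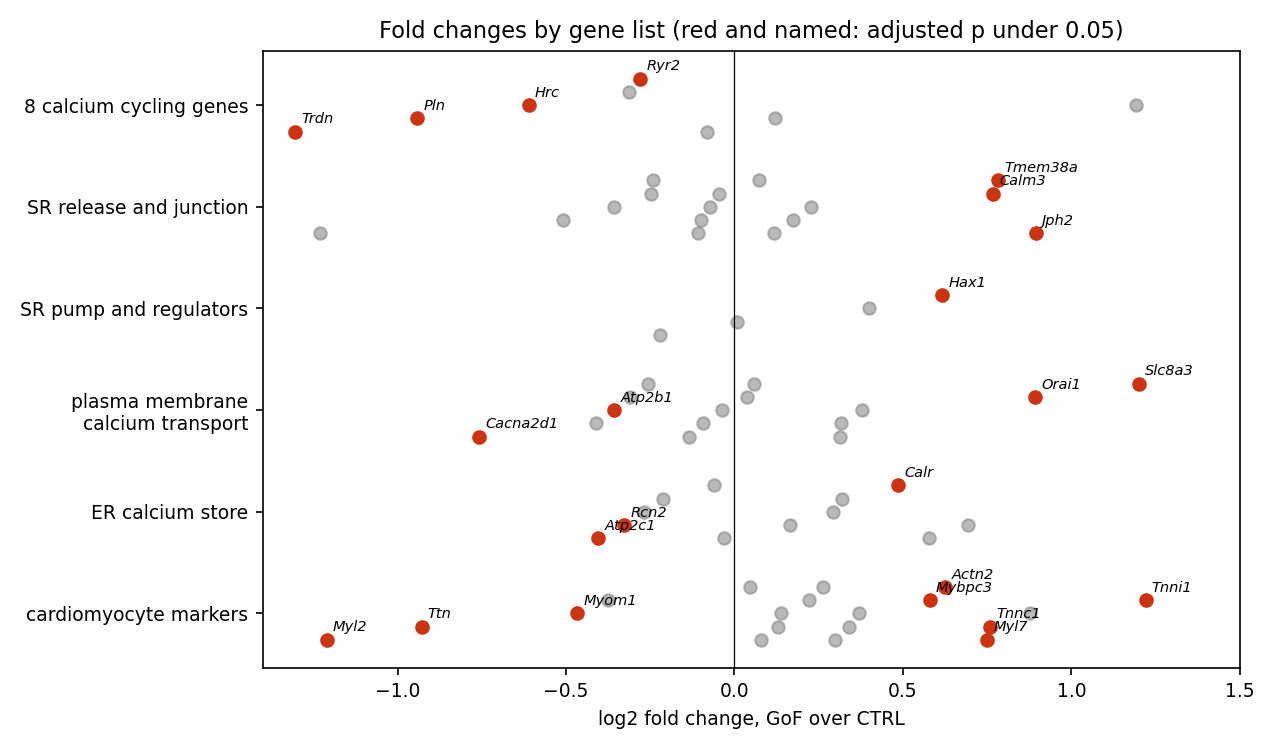
Log2 fold change of GoF over CTRL (horizontal axis) for each tested gene of 6 lists, spread vertically for reading only, with called genes in red and named. Calls among the 8 calcium cycling genes lie below 0, those of the release and junction list above it, and the lists of membrane transport, store and cardiomyocyte genes hold both directions.

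Each member was set beside the genes of most similar profile, by the root mean square difference of the 5 centred log2 values among 11382 or 11383 other genes with a mean of at least 50. The nearest to Pln were Ttn (0.038), Klhl31 (0.052) and Grin3a (0.074). Pln per 1000 counts of Ttn was 1.20 and 1.18 in CTRL and 1.15, 1.15 and 1.24 in GoF, although both genes were higher in control replicate 3 than in 2 and in GoF replicate 3 than in 2. The narrow range of this ratio follows from the choice of Ttn by nearest profile. After GC trend removal the log2 fold changes were -0.52 for Pln and -0.87 for Ttn. The nearest to Trdn were Mrvi1 (0.127), mt-Nd4 (0.136) and Itgb8 (0.144), and to Hrc Chpt1 (0.036), Sgol2a (0.039) and Spopl (0.040). For Ryr2 they were Cdkal1 (0.016), Spred1 (0.018) and Zfp867 (0.019), for Atp2a2 Vps36 (0.009), Peli2 (0.012) and Arsg (0.013), for Slc8a1 Eci2 (0.024), Slc4a8 (0.024) and Zfp940 (0.024) and for Asph Unc13b (0.027), Tvp23b (0.032) and Usp33 (0.032). Casq2 was nearest to Zkscan16 (0.069), Kcna5 (0.120) and Nim1k (0.123), each of which was also lower in control replicate 3 than in the other 4 libraries. With 5 libraries in 2 groups, a similar profile is a description of these libraries.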

How the data were processed

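RNA was amplified to cDNA before library construction, per the labels' protocols, which give 2 ng of total RNA as input. STAR 2.5.2, HTSeq, DESeq2 and mm10 appear in the submitters' processing notes. Annotation, filters and strand setting were not stated there. The authors' deposited signal is a normalized count per library. In each column 100% of values were whole multiples of 1 step (within 0.001), so whole reads were recovered. The log2 fold change, the test score and the p-value deposited by the authors come from their own comparison.

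As the table holds normalized values, the test planned for these was used: limma 3.58.1 (R 4.3.3, eBayes with trend and robust options) on log2(normalized count + 1), with genes of mean 10 or more, no covariate, and calls at a Benjamini-Hochberg adjusted p under 0.05 over all genes. The added count shrinks the log2 fold change of low genes: that of Casq2 was 1.19, and 1.23 with 0.5 added. By edgeR and DESeq2 it was smaller, at 1.03 and 1.00. Alternatives on the recovered reads were edgeR 4.0.16 (quasi-likelihood; 2080 genes higher, 1679 lower) and DESeq2 1.42.0 (2212 and 2241). Others changed pseudocount, filter, scaling, GC or length trend (lowess, span 0.3), block and libraries. GC content and length came from the longest GENCODE M21 transcript (GRCm38, the assembly of mm10), available for 16302 genes. The fits were tested on simulated data. Those data had independent libraries and no GC trend, so they do not test how the fits behave with these features of the series. Amplified reads are not independent molecules, so no counting intervals are given.

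Members and lists were chosen with earlier results of these data known. All 8 members are named, from each list up to 4 called genes by adjusted p (or the 2 most expressed), and 3 genes of nearest profile per member. Protein features, part of the planned design, were not analysed here.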

Additional observations from a re-analysis of the deposited data

How the results depend on the processing

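Results were recomputed under 20 alternatives, of which TMM factors without mitochondrial genes was chosen after seeing the data. Of these 20, Hrc was called lower in 20, Trdn in 18, Pln in 13 and Ryr2 in 8. The replicate block and the fit without GoF replicate 1 gave the same fold changes, so they are not separate checks. The counts include fits with 1 control, whose p-values do not measure the spread between controls. Members called lower numbered 1 with GC trend removal and no GoF replicate 1, 2 with the replicate block, and 2 to 5 when single libraries were left out; members called higher numbered 1 after quantile normalization and 0 to 2 when single libraries were left out. Over all genes 2054 were called higher and 1835 lower, against 506 and 542 after GC trend removal, 52 and 66 without GoF replicate 1 as well, 678 to 2734 and 554 to 2552 when single libraries were left out, and 865 higher relative to cardiomyocyte markers. The sign of Asph turned with quantile normalization (0.0731), GC trend removal (0.0955, and 0.0956 without GoF replicate 1), and, without GoF replicate 2, 0.00317 (-0.167 to 0.00317 over the fits without 1 library). The sign of Slc8a1 turned with GC trend removal (0.03297, and 0.00850 without GoF replicate 1) and length trend removal (0.0397), that of Ryr2 with length trend removal (0.0484), and that of Atp2a2 relative to cardiomyocyte markers (-0.0761), and, without control replicate 3, -0.0163 (-0.0163 to 0.255 over the fits without 1 library). The cause was not tested. The labels do not say that a shared replicate number marks a litter or day. The deviations of same-numbered libraries correlated over genes at 0.00676 and 0.00251. With 2 controls the deviations of one mirror those of the other (control replicate 3 with GoF replicate 2 at -0.00676). These correlations therefore cannot decide whether the numbers pair the samples. With the replicate block 765 genes were higher and 606 lower; with the block and GC trend removal these were 73 and 90, 1 member was lower, Asph was at 0.0950 and Slc8a1 at 0.00860. Depth limits Casq2, which rests on 6 to 41 reads per library.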

Other observations

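Features annotated within the Atp2a2 locus, all of the annotation class TEC, were counted apart from the gene. Gm43361, on the opposite strand and sharing 83 exonic bases with Atp2a2, was at 1237 and 1272 normalized counts in CTRL and 1006, 1013 and 944 in GoF (-0.35 on the log2 scale, limma adjusted p = 0.0387). Gm43360, on the same strand and sharing no exonic base, was at 725 and 631 against 488, 536 and 505 (-0.41, adjusted p = 0.0493). Gm43359 was at 546 and 500.4 against 483, 361 and 574 and did not pass (adjusted p = 0.545). After GC trend removal neither Gm43361 nor Gm43360 passed (adjusted p = 0.615 and 0.786).

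Among the cardiomyocyte markers, Myl2, the ventricular light chain, and Myom1, an M-band protein, were singled out after their values were seen. Myl2 was at 707 and 1213 in CTRL and 422, 328 and 459.5 in GoF (-1.21 on the log2 scale, limma adjusted p = 0.0132; 0.0244 after GC trend removal). Like Pln and Ttn, it was higher in the third control than in the second. Myom1 was at 2359 and 2975 against 1961, 1893 and 1900.4 (-0.47, adjusted p = 0.0236; 0.0214 after GC trend removal).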
